A study of Mus musculus with 35 samples.

Results

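The genes described here are 10 components of the cardiac sarcomere, the contractile unit of heart muscle. They are the myosin heavy chains Myh6 and Myh7, the myosin light chains Myl2, Myl3, Myl4 and Myl7, the troponin subunits Tnnt2 and Tnni3, the cardiac actin Actc1, and titin, Ttn. They were listed by symbol, 10 of 55356 counted genes, and each symbol was matched to its counted locus through the map deposited with the counts. All 10 were found, and all 10 passed the filter on low counts, which kept 29911 genes.

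In the sarcomere, thick filaments of myosin pull on thin filaments of actin, and calcium binding to the troponin complex on the thin filament switches the pull on and off. Heart chambers differ in the myosin parts they use: ventricles carry the light chains Myl2 and Myl3, atria carry Myl7 and Myl4, and the adult mouse ventricle uses mainly the alpha heavy chain, Myh6, with little of the beta heavy chain, Myh7. Titin spans from the Z-disc to the M-band and acts as a spring and a scaffold.

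The study sequenced RNA of adult C57BL/6J mice to describe transcripts of pseudogenes, and the sarcomere genes were counted in the same libraries. No treatment or genetic change is given in the labels. There are 29 RNA-seq libraries of ribosome-depleted total RNA, made strand-specific, in 10 groups. Both sexes gave colon, heart, cerebellum and brain, females gave ovary and males testis. Each group holds 3 libraries, except male heart with 2, and the labels do not divide the heart into chambers.

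Library depth, as the total of the deposited counts, lay between 11742417 and 36194255, and its median over the 29 libraries was 24403774. The heart libraries held 24318955, 25062064 and 24010606 counts in females 1, 2 and 3, and 19590147 and 20622258 in males 1 and 2. The labels do not say that libraries of a group come from separate animals, so the p-values below measure only the spread between libraries.

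Female heart 3 stands apart from the other 4 heart libraries. Across 29911 genes, which are not independent of each other, the Pearson r of log2 CPM (counts per 1000000 counts of the library, plus 1) was 0.953 to 0.964 between it and the other hearts, and 0.990 to 0.994 among the others. Of 17271 genes with at least 50 counts over the hearts, 3599 (20.8%) were more than 2 times higher in it than in the next heart, and 316 were more than 10 times higher. In each of the other hearts, 7 to 25 genes were more than 2 times above the next. Female heart 3 was the highest heart for 66.3% of these genes and the lowest for 12.7%. These numbers scale by total counts and move with the scaling: the TMM factor was 1.12 for female heart 3 and 0.604 to 0.711 for the other hearts. With TMM scaling, used here after seeing the data, 1303 genes (7.54%) were more than 2 times above the next heart and 224 more than 10 times, and female heart 3 was highest for 31.5% and lowest for 41.0%. Where a result was found to rest on female heart 3, its value without that library is given too.

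All 9 atrial markers had their highest heart value in female heart 3, or 8 with TMM scaling, beside 66.3% and 31.5% of all genes. By either scaling 6 of 9 were more than 2 times above the next heart, beside 20.8% and 7.54% of all genes. Beside 316 and 224 of 17271 genes, 5 and 4 of the 9 markers were more than 10 times above the next heart. Nppa, the atrial natriuretic peptide, was the most abundant of them in female heart 3 and on average, and Pam, an enzyme that amidates peptides, in each of the other 4 hearts. Nppa had 55.7, 90.1 and 2769.6 FPKM in females 1, 2 and 3 and 76.7 and 41.0 in males 1 and 2. FPKM is the CPM per kilobase of the gene's exons. Sln, sarcolipin, an atrial inhibitor of the calcium pump, had 1, 78 and 4264 counts in the females and 67 and 0 in the males. The 9 markers summed to 517, 712 and 4029 CPM in the females and to 744 and 572 in the males. Bmp10, a growth factor made by atrial muscle and named here after its values were seen, had 1726 counts in female heart 3, 1 in female heart 1 and 0 in the other 3 hearts.

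Markers of cells other than heart muscle were also high in that library. The 5 adipocyte markers summed to 0.123, 5.55 and 1679.7 CPM in females 1, 2 and 3 and to 2.50 and 0.291 in males 1 and 2. Under both scalings all 5 were more than 10 times above the next heart, beside 316 and 224 of 17271 genes. Adipoq, the adipocyte hormone adiponectin, was the most abundant on average, at 695 FPKM in female heart 3. The 5 lung epithelial markers summed to 0, 0.200 and 52.9 CPM in the females and to 0.408 and 0.0970 in the males. Sftpc, a surfactant protein, led that list with 28.8 FPKM in female heart 3 and was at 0 in 3 hearts.

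Fibroblast, smooth muscle, leukocyte, conduction and epicardial markers were higher there too by total counts, by smaller factors, and their counts below stand beside the 66.3% of all genes that were highest there. The 6 fibroblast markers, led by Dcn on average, summed to 1348, 1914 and 4242 CPM in the females and to 1922 and 1390.2 in the males, with 6 of 6 highest in female heart 3. The 10 smooth muscle markers, led by Acta2, summed to 199, 263, 639.6, 287 and 318 CPM in the same order, with 9 of 10 highest there. The 6 leukocyte markers, led by Csf1r, summed to 104, 151, 361, 196 and 143 CPM, with 6 of 6 highest there. With TMM scaling 4 of 6, 7 of 10 and 4 of 6 were highest there, beside 31.5% of all genes, and the sums of female heart 3 and of the next heart were 3802 and 2751 for fibroblast, 573 and 467 for smooth muscle and 324 and 281 for leukocyte markers. Each of these lists holds genes that the whole heart also expresses, and no marker of them was at 0 in all hearts.

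The 5 conduction markers summed to 9.38, 15.6, 51.9, 19.7 and 18.1 CPM in females 1, 2 and 3 and males 1 and 2. Gja5 led them in FPKM on average. In CPM, Hcn4 led in female heart 1 and both male hearts, Tbx3 in female heart 2 and Gja5 in female heart 3. Of these markers 5 of 5 were highest in female heart 3. The 4 epicardial and mesothelial markers, led by Upk3b, summed to 219.5, 247, 519, 164 and 185 CPM, with 4 of 4 highest there. With TMM scaling these became 3 of 5 and 3 of 4, with sums of 46.5 against a next of 28.2 for conduction and 465 against 363 for epicardial markers. The 7 endothelial markers, led by Pecam1, summed to 476, 931, 935, 947 and 637 CPM, with 2 of 7 highest in female heart 3. With TMM scaling they summed to 789, 1309, 838, 1356 and 934. Then 1 of 7 was highest and 5 of 7 lowest there, beside 31.5% and 41.0% of all genes.

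Muscle and blood markers went the other way, beside 12.7% of all genes that were lowest in female heart 3, or 41.0% with TMM scaling. The 8 ventricular markers, 3 of them sarcomere genes described here, summed to 27559, 20761 and 9341 CPM in the females and to 20414 and 18487.5 in the males, with Myl2 the most abundant and 4 of 8 lowest in female heart 3, or 8 of 8 with TMM scaling. The 5 red cell markers, led by Hbb-bs, summed to 16079.6, 15936, 4679, 7548 and 5948 CPM in the same order, with 4 of 5 lowest there, or 5 of 5 with TMM scaling. In bulk tissue, fewer cells of a type and less RNA per cell cannot be told apart. The part that any of these marker lists has in the values of the sarcomere genes in female heart 3 was not tested.

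Summed over the 10 sarcomere genes, the heart libraries held 87002, 86810.4 and 47843 CPM in females 1, 2 and 3, and 95712 and 94376.5 in males 1 and 2. Female heart 3 was the lowest of the 5. It was the lowest heart library for 7 of the 10 genes (8 with TMM scaling) and the highest for 2 of them, Myl4 and Myl7. Over all genes with at least 50 counts it was lowest for 12.7% (41.0% with TMM scaling) and highest for 66.3% (31.5%).

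**Figure D1:**
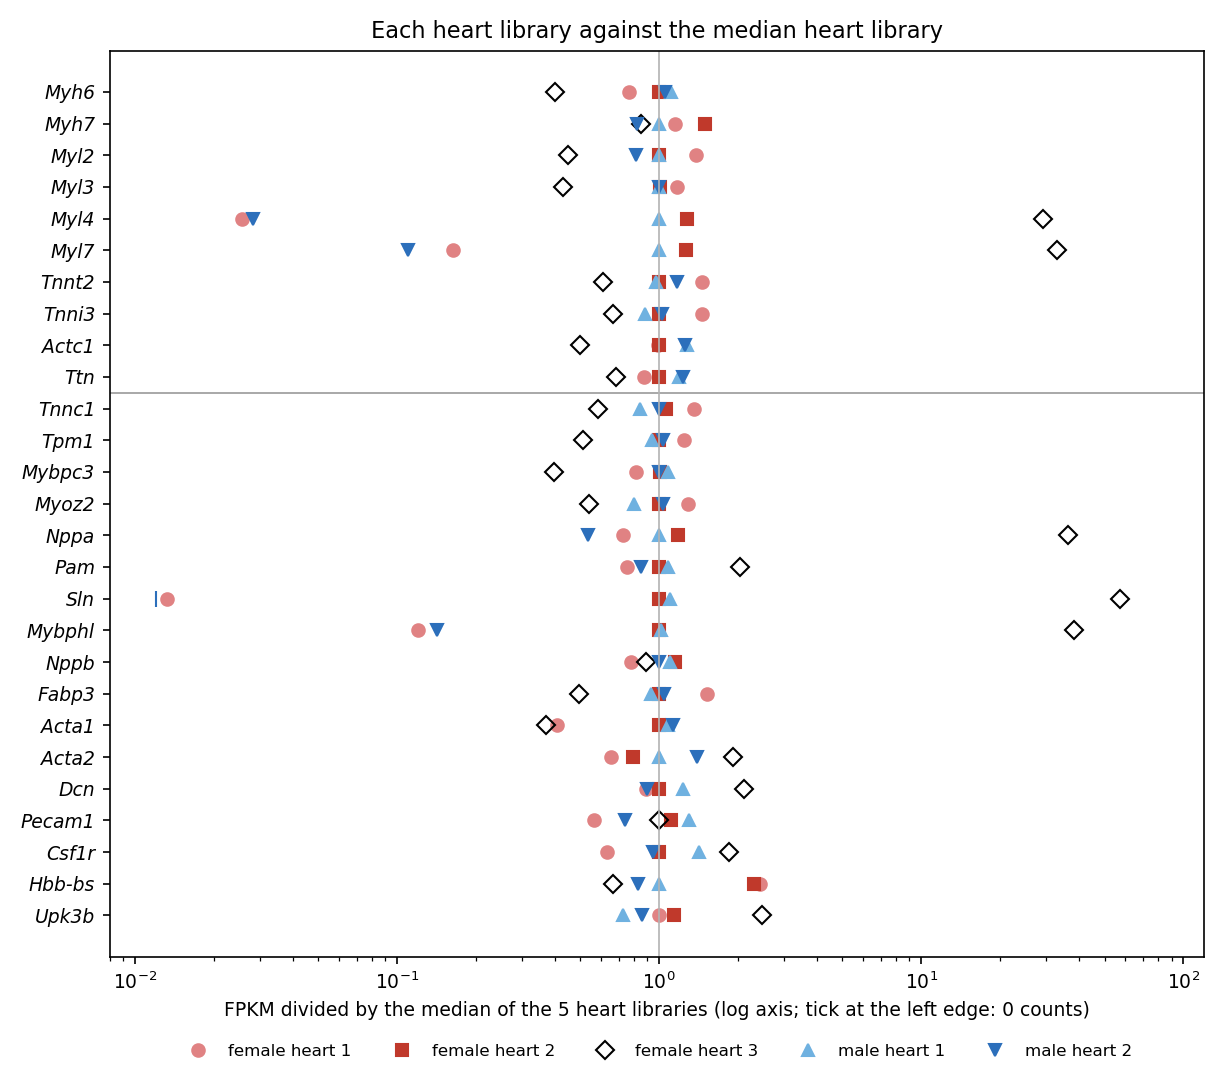
Each point is 1 heart library's FPKM for a gene divided by the median of the 5 heart libraries, on a log axis, with the 10 sarcomere genes above the line and genes of the other lists below it. Female heart 3, the open diamond, lies left of the other 4 hearts for Myl3 (2691 FPKM against 6225 to 7329.6) and far right of them for Myl7 (1989 FPKM against 6.66 to 76.4).

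What was counted as each gene depends on the deposited transcript models. The genes Myl4, Myl7 and Ttn kept their full reference models, which cover 100% of the GENCODE exon bases, and the other 7 were counted on Iso-seq loci. The Myh7 locus covers 28.9% of the exon bases of its GENCODE gene, the Tnnt2 locus 15.1%, the Myl2 locus 32.5%, the Myl3 locus 44.0%, the Actc1 locus 86.0% and the Myh6 locus 90.0%. The Tnni3 locus covers 44.2% and also holds Dnaaf3, an assembly factor of ciliary dynein, with 2257 bases outside the Tnni3 gene. These shares are of the union of exons over all GENCODE models of a gene. The covered bases were 1170 for Tnnt2, 634 for Myl2, 899 for Myl3 and 911 for Tnni3. The transcript with the longest coding sequence had 1172, 729, 937 and 912 bases in the same order. For Myh7 the 2 numbers were 2492 and 6135.

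The order of genes by level in heart therefore depends on the length used. By the deposited exon lengths, Myl2 was first of 10, Actc1 second and Myl3 the third. Myl4, with 4637 exon bases in its model but a coding sequence of 579 bases, had a heart mean of 65.5 FPKM by the first and 525 per coding kilobase by the second, below and above Myl7 with 428 and 482. CPM, which uses no length, put Ttn first, at 23588 CPM, and Myh6 next, at 23481 CPM, and without female heart 3 Myh6 came first, with 26642 CPM against 25414 for Ttn.

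**Figure D2:**
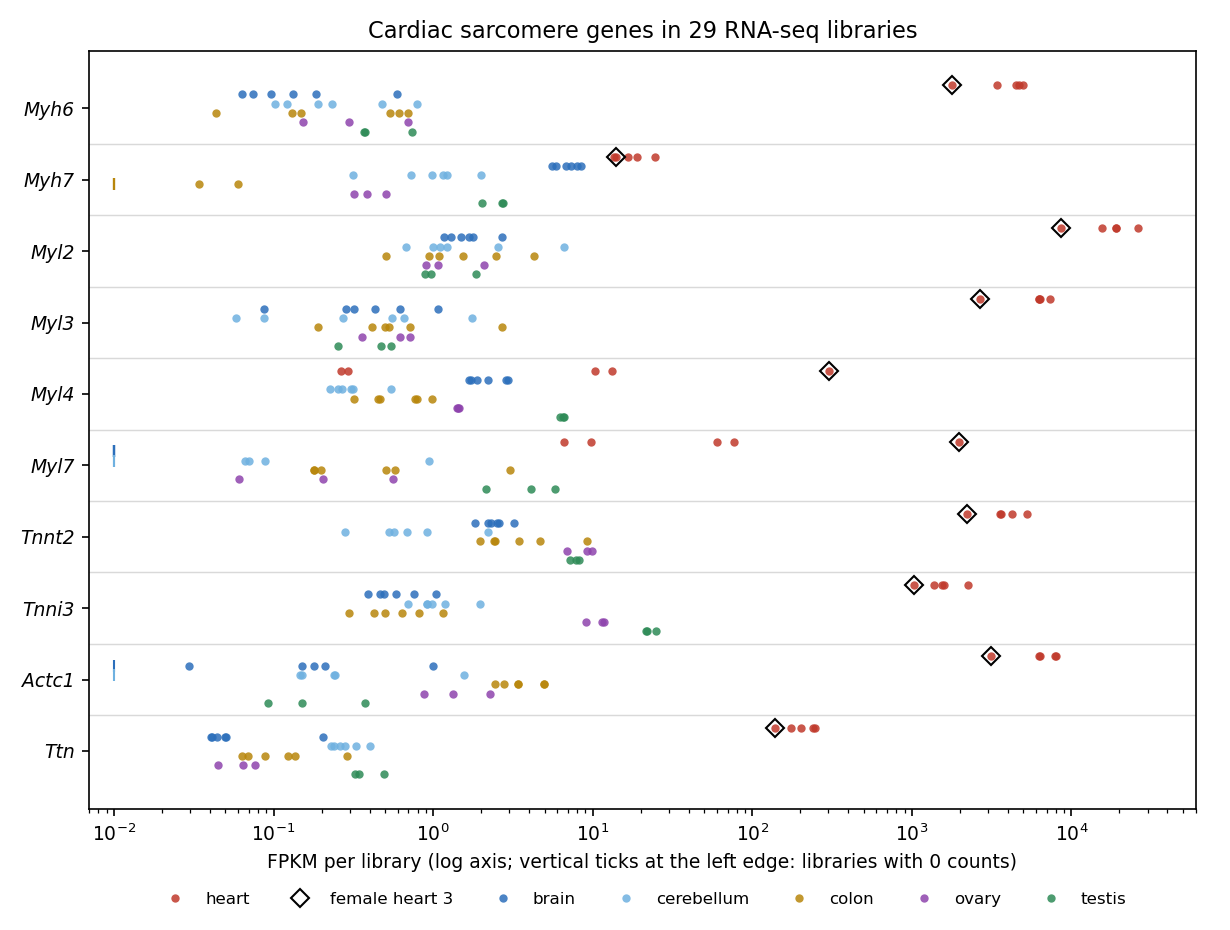
Each dot is 1 of 29 libraries, coloured by tissue, at its FPKM for the gene on a log axis, with libraries at 0 counts as ticks at the left edge and female heart 3 ringed by a diamond. For 7 genes the lowest heart is at least 41.1 times the highest of the other 24 libraries, while Myl4 hearts run from 0.266 to 303 FPKM across other tissues, Myl7 hearts start at 6.66 against a highest testis value of 5.79, and Myh7 hearts at 13.7 against a highest brain value of 8.46.

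Among the thick filament genes, Myh6 encodes the alpha heavy chain, the fast motor of the adult mouse heart. Its locus, PB.3704, lies on chromosome 14 from 54941921 to 54966576 on the minus strand and carries 29 transcript models. Myh6 had 3441, 4474 and 1789 FPKM in females 1, 2 and 3 and 4951 and 4719.9 in males 1 and 2, a mean of 3875 ± 1301 (SD, n = 5). Female heart 3 was below the rest, and the mean of the other 4 was 4396 ± 666.

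Myh7, the slower beta heavy chain of the fetal ventricle and of slow skeletal muscle, lies beside it at PB.3705, from 54970688 to 54979477 on the same strand. Myh7 had 19.1, 24.7 and 14.1 FPKM in the female hearts and 16.6 and 13.7 in the male hearts, a mean of 17.6 ± 4.50 (SD, n = 5). The mean without female heart 3 was 18.5 ± 4.67. The hearts held 60.6% of its FPKM summed over the 29 libraries, the smallest such part among the 10 genes. Leaving out female heart 3 made Myl4 the smallest, at 36.2%, with Myh7 at 56.4%.

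**Figure D3:**
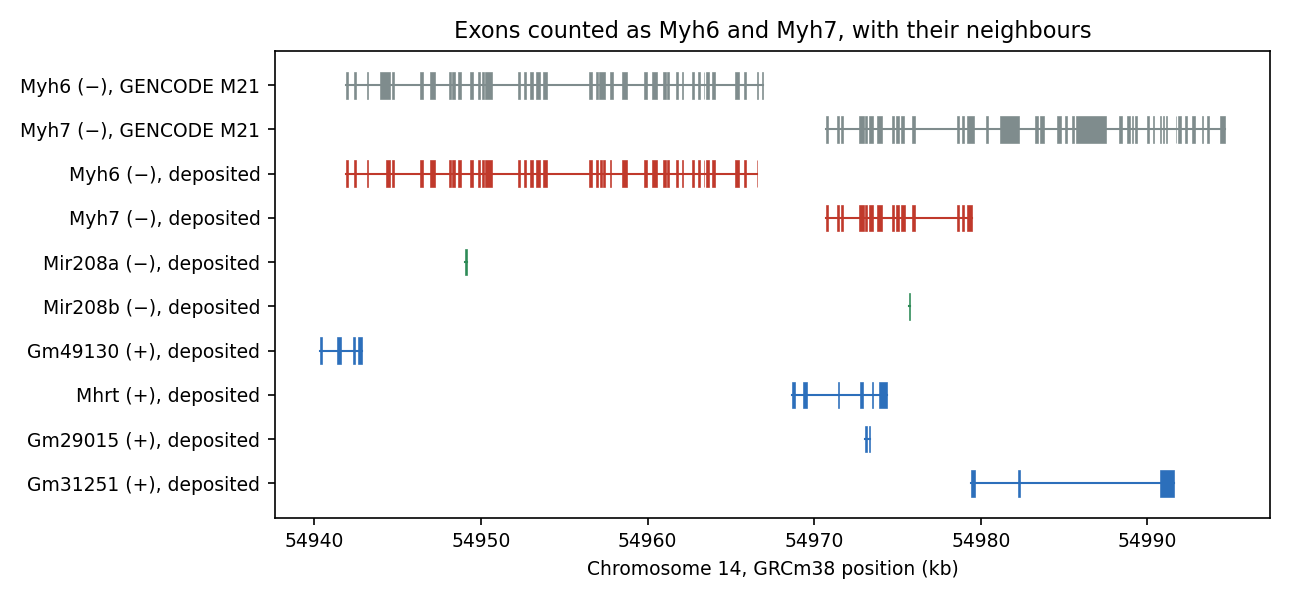
Exon unions on chromosome 14 of GRCm38 in kilobases, with GENCODE M21 genes in grey, deposited Myh6 and Myh7 in red, the microRNA genes in green and genes of the opposite strand in blue, and strands in brackets. The deposited Myh7 ends at 54979477 where the GENCODE gene goes on to 54994626, so that 14 exon blocks with 2500 bases were counted as Myh7.

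Myl2 is the ventricular regulatory light chain, counted on PB.9559 on chromosome 5 from 122100979 to 122106854 on the plus strand. It had 26321, 19128 and 8547 FPKM in the female hearts and 19096 and 15549 in the male hearts, the highest mean of the 10 genes by deposited length at 17728 ± 6456 (SD, n = 5). Female heart 3 was again lowest, and the mean of the other 4 was 20023 ± 4522. Myl3, the ventricular essential light chain, also made in slow skeletal muscle, lies on chromosome 9 from 110763681 to 110769795. It had 7329.6, 6322 and 2691 FPKM in the females and 6225 and 6260.3 in the males, a mean of 5766 ± 1779.5. The 4 hearts other than female heart 3 fell close together for Myl3, with a mean of 6534 ± 532.

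Myl7 and Myl4 are the atrial partners of Myl2 and Myl3. Myl7 lies on chromosome 11 from 5896637 to 5898782 on the minus strand, and its heart values were 9.83, 76.4 and 1989 FPKM in females 1, 2 and 3 and 60.4 and 6.66 in males 1 and 2. Female heart 3 held 92.0% of its FPKM summed over the 29 libraries. The mean of 428 ± 873 (SD, n = 5) became 38.3 ± 35.3 without that library.

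Myl4, on the plus strand of the same chromosome from 104550663 to 104595753, had the same ranking of heart libraries in part. It had 0.266, 13.3 and 303 FPKM in the females and 10.4 and 0.293 in the males, from 30, 1541, 33783, 944 and 28 counts. Female heart 3 was highest for both genes, female heart 2 and male heart 1 came next, and female heart 1 and male heart 2 were low. The Myl4 mean of 65.5 ± 133 became 6.05 ± 6.77 without female heart 3.

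Among the thin filament genes, Actc1 encodes cardiac alpha actin, the thin filament itself. It was counted on chromosome 2 from 114047288 to 114052811 on the minus strand. Actc1 had 6275, 6322 and 3149.9 FPKM in the female hearts and 8059.7 and 7909 in the male hearts, a mean of 6343 ± 1975 (SD, n = 5). Both male hearts stood above all female hearts, and female heart 3 was lowest.

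Tnnt2, cardiac troponin T, anchors the troponin complex to tropomyosin and was counted on chromosome 1 from 135836390 to 135852264. It had 5303, 3643 and 2215 FPKM in the females and 3550.1 and 4273 in the males, a mean of 3797 ± 1127. Tnni3, cardiac troponin I, holds the actomyosin ATPase off between beats, and its locus with Dnaaf3 runs on chromosome 7 from 4518307 to 4532594. It had 2257, 1546 and 1031 FPKM in the females and 1369 and 1589.9 in the males, a mean of 1559 ± 448. For both troponins female heart 1 was highest and female heart 3 lowest, and male hearts lay within the range of the females.

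Ttn, on chromosome 2 from 76703980 to 76982547, has 117334 exon bases in the deposited models. It had 176, 202 and 139 FPKM in the female hearts and 239.7 and 248 in the male hearts, a mean of 201 ± 45.4 (SD, n = 5). As for Actc1, both male hearts were above all female hearts. Without female heart 3 the means were 217 ± 33.7 FPKM for Ttn, 7141 ± 975 for Actc1, 4192 ± 807 for Tnnt2 and 1691 ± 389.5 for Tnni3.

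Ratios between genes of 1 library do not depend on its scaling. Myl3 came to 27.8 to 40.3 per 100 Myl2 in FPKM, Myh6 to 54.8 to 70.8 per 100 Actc1, and Tnni3 to 37.2 to 46.5 per 100 Tnnt2. These 3 ratios differed by at most 1.45 times between hearts, female heart 3 included, and these 6 genes were low together there. Other pairs of them varied more, Actc1 per 100 Myl2 by 2.13 times and Tnnt2 per 100 Actc1 by 1.92 times. Ttn came to 7.76 per 100 Myh6 in female heart 3 and to 4.52 to 5.26 in the other 4.

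Myl7 per 100 Myl2 sets the atrial against the ventricular regulatory light chain within each library. Myl7 came to 0.0373, 0.399 and 23.3 per 100 Myl2 in females 1, 2 and 3 and to 0.316 and 0.0428 in males 1 and 2. Female heart 3 was far above the other hearts, which fell into a higher and a lower pair, each with 1 female and 1 male. Myl4 per 100 Myl3 followed the same split, at 0.00363, 0.210 and 11.3 in the females and 0.167 and 0.00468 in the males.

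Between sexes, the geometric mean of Myl7 per 100 Myl2 was 0.116 in males and 0.703 in females, a log2 difference of −2.59 (exact permutation test over 10 choices of 2 of 5 libraries, two-sided, p = 0.5). The smallest p this design allows is 0.1. Without female heart 3 the difference was −0.07, with p = 1 by the exact permutation test and a smallest possible p of 0.333. The male and female libraries overlapped with and without that library.

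The ratio of the beta to the alpha heavy chain is a textbook marker of the fetal state and of load in the ventricle. Myh7 came to 0.554, 0.552 and 0.788 per 100 Myh6 in females 1, 2 and 3 and to 0.335 and 0.290 in males 1 and 2. The 3 female libraries lay above both male libraries, and the groups did not overlap. The geometric means were 0.311 in males and 0.622 in females, a log2 difference of −0.998 (exact permutation test, two-sided, p = 0.1, the smallest that 10 choices allow). Without female heart 3 it was −0.83 with p = 0.333 by the exact permutation test, again the smallest possible. The level of this ratio changes with the length used, from a median of 0.552 by deposited lengths to 0.178 by GENCODE exon lengths. Reads of Myh7 were counted only on its 2500 deposited bases, so its GENCODE length of 8616 includes bases that were not counted. The difference between sexes cannot change with the length, which scales all libraries alike.

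Mhrt, a long noncoding RNA on the strand opposite to Myh7, shares 463 exon bases with the deposited Myh7 locus, and the files do not say whether reads were counted by strand. Mhrt came to 252, 285 and 249.99 per 100 Myh7 in the female hearts and to 601 and 1205 in the male hearts. Both male hearts were above all female hearts in this ratio, which was not tested. How many of the counts of either gene come from the other strand cannot be told apart.

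The comparison of heart with the other tissues was built into the choice of these genes, so it is a description. All 10 of 10 genes were higher in heart than in the mean of the brain, cerebellum and colon groups, where 23.5% of 29911 genes tested were higher at an adjusted p under 0.05 (edgeR quasi-likelihood test). The log2 differences were 14.66 (SE 0.40) for Myh6, 13.94 (SE 0.42) for Actc1, 13.93 (SE 0.38) for Myl3 and 13.87 (SE 0.38) for Myl2. They were 11.61 for Tnni3, 11.50 for Tnnt2, 11.15 for Ttn and 11.12 for Myl7, and the smallest were 5.76 (SE 0.24) for Myh7 and 5.25 (SE 0.63) for Myl4. All adjusted p were 3.17e-07 or less. The Myh7 value averages in colon, where no library had more than 2 counts of it. Against brain alone, the heart mean of Myh7 was 2.52 times the brain mean in FPKM.

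The values of the atrial chains in this comparison rest on single libraries. Without female heart 3 the log2 difference was 3.58 for Myl4 and 9.44 for Myl7, and without male heart 1, which leaves 1 male heart assumed to vary like the other groups, it was 3.17 (adjusted p = 0.0177) and 9.97. With ovary and testis added to the reference, the log2 difference of Tnni3 was 10.52 and that of Myl7 10.22.

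Outside heart the order of tissues differed between the genes, and the levels ran from traces to 39.7% of the heart mean, for Myh7 in brain. Myh7 had the clearest order: after heart came brain at 6.996 ± 1.14 FPKM (SD, n = 6; lowest 5.54, median 7.09, highest 8.46), then testis at 2.49 ± 0.400 (n = 3), cerebellum at 1.07 ± 0.563 (n = 6), ovary at 0.405 ± 0.0961 (n = 3) and colon. In colon, 4 of 6 libraries had 0 counts and the other 2 had 1 and 2. Neighbours in this order did not overlap, except cerebellum and ovary. Mhrt followed with a mean of 83.6 FPKM in heart, 8.05 in brain, 1.69 in testis, 1.03 in cerebellum, 0.277 in ovary and 0.0323 in colon.

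The place of heart in the order of Myl4 rests on female heart 3, since the heart mean without it, 6.05 FPKM, was below that of testis. Testis had 6.45 ± 0.207 FPKM (SD, n = 3), then came brain at 2.22 ± 0.558 (n = 6), ovary at 1.43 ± 0.0116 (n = 3), colon at 0.631 ± 0.254 (n = 6) and cerebellum at 0.319 ± 0.114 (n = 6). Female heart 1 and male heart 2, at 0.266 and 0.293 FPKM, were below every brain, ovary and testis library. Testis, brain, ovary and colon did not overlap their neighbours, and colon and cerebellum did. Myl7 had 4.01 ± 1.83 FPKM in testis (n = 3), 0.779 ± 1.12 in colon (n = 6), 0.276 ± 0.259 in ovary (n = 3) and 0.194 ± 0.367 in cerebellum (n = 6), each overlapping the next, and the lowest heart, at 6.66 FPKM, was just above the highest testis library, at 5.79. All 6 brain libraries had 0 Myl7 counts, and the heart mean was at least 2318-fold above the level that 3 counts in each of them would give, or 207-fold without female heart 3. Such floors, and the interval given for Myh7 in colon, cover counting error only.

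The troponins were higher in gonads than in the other tissues outside heart. Tnni3 had 22.9 ± 1.88 FPKM in testis and 10.8 ± 1.49 in ovary (SD, n = 3 each) against 1.11 ± 0.449 in cerebellum, 0.639 ± 0.311 in colon and 0.624 ± 0.242 in brain (n = 6 each). Testis, ovary and the rest did not overlap, but the counts of this locus cannot be told apart from those of Dnaaf3. Tnnt2 had 8.67 ± 1.59 in ovary and 7.75 ± 0.496 in testis, 4.04 ± 2.73 in colon, 2.45 ± 0.463 in brain and 0.868 ± 0.692 in cerebellum, and each tissue overlapped the next. Ttn was at 0.387 ± 0.0944 in testis and 0.291 ± 0.0654 in cerebellum. It was at 0.128 ± 0.0841 in colon, 0.0721 ± 0.0656 in brain and 0.0619 ± 0.0156 in ovary, and each of these tissues overlapped the next.

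Myh6, Myl2 and Myl3 had no order outside heart that their spread allows, since the tissues overlapped from first to last. Their tissue means were 0.190 to 0.495 FPKM for Myh6, 1.23 to 2.20 for Myl2 and 0.421 to 0.845 for Myl3. Actc1 stood at 3.65 ± 1.07 FPKM in colon (n = 6), above the ovary libraries at 1.497 ± 0.717 (n = 3). Cerebellum, brain and testis had means of 0.391, 0.263 and 0.206, and from ovary on each tissue overlapped the next.

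Part of these levels came from single libraries. Female cerebellum 3 was the highest cerebellum library for 8 of the 10 genes, with 130 counts of Myh6, 114 of Myl2, 43 of Myl3 and 59 of Actc1. Relative to the heart mean these came to 20.4, 37.4, 30.6 and 24.7 per 100000 parts, and Nppa had 45 counts there. Female brain 1 was the highest brain library for 6 of the 10 genes, with 92 counts of Myh6, 44 of Myl2, 25 of Myl3 and 36 of Actc1, or 15.2, 15.2, 18.7 and 15.9 per 100000. Other genes differed: in female brain 1 Ttn was at 102, Tnni3 at 66.9 and Tnnt2 at 60.5 per 100000. Myl7 was at 219 per 100000 in female cerebellum 3, or at 2450.2 with the heart mean without female heart 3, and at 0 counts in female brain 1. Their source was not tested.

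Colon has a wall of smooth muscle, so it was compared with brain and cerebellum, which have none beyond their vessels. Of the 10 genes, 2 were higher in colon and 1 was lower (edgeR, adjusted p under 0.05), where 31.2% of 29911 genes tested were higher and 39% were lower. The count is not above the background in either direction. Actc1 and Tnnt2 were the higher ones and Myh7 the lower one.

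Actc1 ran from 2.45 to 4.98 FPKM in colon with a median of 3.39, from 0 to 1.01 in brain with a median of 0.165, and from 0 to 1.57 in cerebellum with a median of 0.195. The 6 colon libraries were above all 12 neural ones, and the log2 difference was 3.77 (SE 0.47, adjusted p = 1.07e-07). Tnnt2 ran from 1.98 to 9.25 in colon with a median of 2.96, from 1.83 to 3.22 in brain with a median of 2.40, and from 0.280 to 2.21 in cerebellum with a median of 0.630. Colon and brain libraries overlapped for Tnnt2, and the log2 difference of 1.40 (SE 0.33, adjusted p = 0.000483) was 0.89 (adjusted p = 0.0113) without male colon 3.

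For Myh7, colon held 3 counts in all against 3347 in brain and cerebellum, a rate 338 times lower with a 95% exact interval of 116 to 1641. Its fitted log2 difference of −7.61 (SE 0.50, adjusted p = 1.59e-13) depends on the prior count, and was −9.07 without male colon 3 and −8.81 without female colon 1. The other 7 genes did not pass. For Myl7 the comparison says little, since brain had 0 counts and the filter removed the gene when only colon and neural libraries were fitted. The other 6 had log2 differences of 0.61 for Myl3, 0.14 for Myh6, −0.21 for Ttn, −0.28 for Myl2, −0.39 for Tnni3 and −0.52 for Myl4. Tnni3 was called without female colon 3 (−0.78, adjusted p = 0.0153) and Ttn without male colon 1 (−0.71, adjusted p = 0.0230).

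Scaling moves this comparison as a whole. DESeq2's size factors and the RLE factors each moved the log2 differences of all genes by a median of 0.22, and with them Ttn changed sign, to 0.01 and 0.02. Under these factors Actc1 was 4.05 and 3.98, Tnnt2 1.66 and 1.63, and Myh7 −7.57 and −7.41, all past the threshold and each further from 0 than the shift. The 10 smooth muscle markers were all higher in colon, with a median log2 difference of 6.81 against −0.15 over all genes tested.

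Between male and female heart none of the 10 genes passed (edgeR, 0 of 10), where 20 of 29911 genes tested, 0.0669%, did. At an unadjusted p under 0.05 there were 2 of the 10, Myl4 and Myl7, beside 9.53% of all genes tested, and DESeq2 also called 0, with 2 at an unadjusted p under 0.05. The log2 difference, male minus female, was −3.67 (SE 1.42, adjusted p = 0.392) for Myl4 and −3.73 (SE 1.41, adjusted p = 0.394) for Myl7. With the replicate block, a term for libraries that share a replicate number, these were −2.20 and −0.76, and without male heart 1 they were −7.82 and −6.02. Without female heart 3 they were −0.32 and −0.36, and 0 of the 10 had an unadjusted p under 0.05. The other genes had 0.65 for Actc1, 0.63 for Myh6, 0.60 for Ttn, 0.21 for Myl3 and 0.10 for Tnnt2. They had −0.05 for Myl2, −0.09 for Tnni3 and −0.26 for Myh7, with SE over all these genes from 0.39 to 0.63. Without female heart 3 these were 0.26, 0.22, 0.30, −0.22, −0.29, −0.49, −0.46 and −0.60 in the same order.

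The number of all genes that pass between the sexes rests on single libraries. It was 16 without female heart 3, of which 12 were shared with the 20, and 247 and 301 without female hearts 1 and 2. It was 7 and 9 without male hearts 1 and 2, and 272 by DESeq2. None of the 10 alternative settings called a sarcomere gene, and the smallest adjusted p among the 10 over the settings was 0.0553, without female heart 1. Of the 132 genes of all lists, 128 were tested and edgeR called 0 between the sexes, with 27 at an unadjusted p under 0.05, beside 9.53% of all genes tested. DESeq2 called 6 of them, Adipoq, Cidec, Lep and Plin1 of adipocytes, Sftpc of lung and Cd3e of T cells. Without female heart 1 edgeR called 8, among them Nppa and Mybphl, without female heart 2 it called 4, Cidec, Plin1, Nppa and Sftpc, and without female heart 3 it called 0, with 12 at an unadjusted p under 0.05.

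Against the mean log level of the 3 reference tissues, 23.5% of all genes tested were higher in heart (median log2 difference over all −0.33). All 7 other thick and thin filament genes were higher by that comparison (median 9.74). Of these, Myh7b had a lower mean in heart than in brain and cerebellum, with 0.0723 FPKM in colon. Tnnc1, the calcium sensor of the troponin complex, had a heart mean of 3499 ± 1031 FPKM (SD, n = 5), Tpm1, tropomyosin, 1685 ± 475, and Mybpc3, the cardiac myosin binding protein, 597 ± 193. By total counts 6 of these 7 genes were lowest in female heart 3, beside 12.7% of all genes. With TMM scaling all 7 were, beside 41.0%. The 7 genes summed to 20417, 17716 and 8952 CPM in the females and 16797.5 and 17958 in the males.

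All 24 Z-disc and M-band genes were higher in heart by the same comparison (median log2 9.30), although Nebl, an actin binding protein of the Z-disc, had 16.0 FPKM in heart, 22.7 in cerebellum, 15.3 in brain and 0.275 in colon. By total counts 20 of 24 were lowest in female heart 3, beside 12.7% of all genes. With TMM scaling 24 of 24 were, beside 41.0%. Myoz2, a Z-disc ligand of calcineurin, led them at 1802 ± 542 FPKM, followed by Csrp3 at 1289 ± 343 and Des, desmin, at 1082 ± 337. Their sums were 18622, 19258 and 9446 CPM in the females and 17951 and 19387 in the males. The list was low together with the ventricular genes in that library, and desmin, which smooth muscle also makes, was at 1040.2 FPKM in colon.

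Sarcomere genes of fetal and skeletal muscle were a mixed group, with 11 of 19 higher in heart and 5 lower (median log2 1.61), where 23.5% of all genes were higher and 29.4% lower. Without female heart 3 it was 7 higher and 6 lower (median 0.62). Acta1, skeletal alpha actin, was the most abundant at 312 ± 147 FPKM, and Myl1, a fast skeletal light chain, had 13.1, 13.7, 53.7, 11.5 and 12.9 FPKM in females 1, 2 and 3 and males 1 and 2. In this list 14 of 19 were highest in female heart 3, beside 66.3% of all genes, or 12 of 19 beside 31.5% with TMM scaling. Neb, nebulin, 1 of the 11, had a lower mean in heart (0.462 FPKM) than in cerebellum (0.647), and Myh3, the embryonic heavy chain, was at 0 in all hearts. The list summed to 386, 769, 608, 832 and 819.99 CPM.

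The heart comparison also described the marker lists, where 23.5% of all genes tested were higher in heart and 29.4% lower. Of the ventricular markers 8 of 8 were higher in heart (median log2 8.62), with Fabp3, the muscle fatty acid binding protein, at 3989.7 ± 1453 FPKM. Hey2, 1 of the 8, had a lower mean in heart (1.21 FPKM) than in brain (1.29) and cerebellum (1.34). Of 8 atrial markers tested 5 were higher and 2 lower (median 4.37, or 3.23 without female heart 3). For conduction markers it was 3 higher and 1 lower of 5 (median 0.90), or 2 higher and 1 lower without female heart 3 (median 0.29), where Gja5 lost its call. Of these 3, Gja5 and Tbx3 had lower means in heart (1.83 and 1.21 FPKM) than in colon (11.6 and 11.1). Of the epicardial and mesothelial markers 4 of 4 were higher (median 5.04).

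The counts below stand beside 23.5% of all genes tested that were higher in heart and 29.4% that were lower. Among the cells between the muscle fibres, 7 of 7 endothelial markers (median log2 3.80) were higher. So were 4 of 6 fibroblast markers (1.64) and 4 of 6 leukocyte markers (0.91), and no marker of these lists was lower. All 4 of these leukocyte markers and 2 of the 4 fibroblast markers had a higher mean FPKM in colon than in heart. The 5 red cell markers were all higher (5.56), with Hbb-bs, adult beta globin, at 12113 ± 7082 FPKM. Smooth muscle markers went the other way, with 2 higher and 8 lower of 10 (−1.42), or 1 and 8 without female heart 3. Their count of higher genes is not above the share of all genes. Both of the higher ones had lower means in heart than in colon, Acta2 with 79.1 and 2314.7 FPKM and Smtn with 20.9 and 113. For adipocyte markers 2 of 4 tested were higher and for lung markers 1 of 3, and without female heart 3 0 of 4 and 0 of 1 were. These 2 lists are too small to set against the 23.5% of all genes. Of the neuronal markers 5 of 5 were lower (−9.21), with a summed level of 3.44 to 6.16 CPM in the hearts.

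The genes whose pattern over the 29 libraries was most like each sarcomere gene were ranked by the distance between their shares of FPKM per library, among 13833 genes that reach 10 FPKM in some library. Nearest to Myh6 were Mybpc3 (distance 0.0181), Perm1 and Nrap (0.0262 for the third), and nearest to Actc1 were Tnni3k (0.0270), Ckmt2 and Perm1. Nearest to Ttn were Trim55 (0.0226), Gm13938 and Tnni3k, and Gm13938 shares 453 exon bases with Ttn on the opposite strand. Actc1 and Myh6 were themselves close, at 0.0386.

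The ventricular light chains and the troponins formed another set of neighbours. Nearest to Tnnt2 were Pln, phospholamban (0.0220), Gm47644 and Myoz2, and nearest to Tnni3 were Mb, myoglobin (0.0217), Dhrs7c and Tnnc1. Nearest to Myl3 were the unnamed locus PB.1568 (0.0181), Yipf7 and Gm49130, which overlaps 114 exon bases of Myh6 on the other strand, and nearest to Myl2 were Gm31013 (0.0435), PB.1568 and Csrp3. Tnnt2 and Tnni3 were the closest pair among the 10 genes, at 0.0315, and without female heart 3 Actc1 and Ttn were, at 0.0232.

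The atrial chains had other neighbours. Nearest to Myl7 were Mybphl, an atrial binding protein of myosin (0.0135), Nppa (0.0213) and Gm13054 (0.0275), and each had its highest value in female heart 3. Nearest to Myl4 were Hamp, the iron hormone hepcidin (0.0718), Itih4 and Marco, a scavenger receptor of macrophages, less alike and also highest there. Myl4 and Myl7 were at 0.106 from each other and at 0.764 or more from the other 8 genes. These likenesses rest on that library: without it, among 13763 genes, the nearest to Myl7 was Nppa at 0.232, the nearest to Myl4 was Gnpat, an enzyme of ether lipid synthesis, at 0.187, and the nearest of the 10 genes were Myh7 to Myl4 (0.233) and Myh6 to Myl7 (0.339). Nearest to Myh7 were Kcnip2, a potassium channel subunit (0.0795), Nol3 and Rilpl1, and Myh7 was at 0.236 or more from the other genes.

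Myh6 and Myh7 are alike in sequence, which bears on their counts because only uniquely mapped reads were kept. Their coding sequences of 5814 and 5805 bases were identical at 91.7% of 5823 aligned positions. Of the windows of 50 bases in the Myh7 part that was counted, 33.8% also occur in a transcript of a gene elsewhere in the genome, against 22.9% for Myh6 and 0 for the other 8 genes. With windows of 100 bases the shares were 17.9% for Myh7 and 11.5% for Myh6. Genes that overlap a sarcomere gene at the same bases were left out of these counts. The shares depend on the window and are not the part of a gene lost to counting. Myl3 and Myl4 were 74.8% identical with a longest shared run of 29 bases, and Myl2 and Myl7 59.8% with 16.

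The longest stretch that Myh6 and Myh7 share without a difference is shown, since a read that lies wholly inside it matches both genes. It has 245 bases, from 4246 to 4490 of the Myh6 coding sequence and from 4240 to 4484 of the Myh7 one, read from the GENCODE M21 transcripts on GRCm38.
Myh6 and Myh7 shared run: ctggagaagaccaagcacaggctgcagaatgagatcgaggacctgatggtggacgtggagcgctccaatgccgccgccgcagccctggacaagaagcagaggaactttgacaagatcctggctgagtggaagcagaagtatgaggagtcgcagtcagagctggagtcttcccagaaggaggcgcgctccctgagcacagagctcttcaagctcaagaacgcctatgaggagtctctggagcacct

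The heavy chain genes also host microRNAs. Mir208a lies inside Myh6, at chr14:54949060-54949142, Mir208b inside Myh7, at chr14:54975700-54975776, and Mir499 lies on chromosome 2 within the related myosin gene Myh7b. As separate genes they had few counts in these libraries: Mir208a had 1, 3, 5, 1 and 8 in females 1, 2 and 3 and males 1 and 2, Mir208b 4, 15, 5, 16 and 10, and Mir499 0 in all 29. The libraries count long RNA, so these values do not measure the mature microRNAs. Myh7b had 1.502 FPKM on average in heart, 1.63 in brain and 1.65 in cerebellum.

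Their mature sequences are shown from RefSeq on GRCm38.p6, with the seed, bases 2 to 8, in capitals, because the myosin genes host a small family with like seeds. miR-208a-3p and miR-208b-3p have the same seed, and that of miR-499-5p differs from it.
mmu-miR-208a-3p: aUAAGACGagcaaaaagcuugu
mmu-miR-208b-3p: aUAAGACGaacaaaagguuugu
mmu-miR-499-5p: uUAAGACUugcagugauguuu

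Promoters, the 250 bases before each RefSeq start on GRCm38.p6, were found for all 10 genes and searched on both strands for motifs of muscle genes. For Myl2, Tnni3 and Myh7 they lie 7790, 10066 and 15072 bases from the start of the counted locus, so they do not adjoin it. A CArG box, the motif of serum response factor, occurs in 3 of the 10, Myl3, Myl7 and Actc1, and in 1.47% of 32851 promoters. GATAA occurs in 3 of 10 and in 22.6% of all, CATTCC in 4 of 10 and 12.6%, and CANNTG in 8 of 10 and 66.2%. The MEF2 site occurs in 1 of 10, Ttn, and in 2.92% of all, TATAAA in 1 of 10 and 12.4%, and AGGTCA in 1 of 10 and 14.0%. A match is a description of letters and not a site, and no overlap between motifs was removed.

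The 3 promoters with a CArG box are shown because they come from a ventricular, an atrial and a thin filament gene. The box starts at position −85 in Myl3 (chr9:110763428-110763677, plus strand), at −61 in Myl7 (chr11:5898783-5899032, minus strand) and at −47 in Actc1 (chr2:114052876-114053125, minus strand), counted from the RefSeq start. Capitals mark each match to the motifs other than CANNTG.
Myl3 promoter: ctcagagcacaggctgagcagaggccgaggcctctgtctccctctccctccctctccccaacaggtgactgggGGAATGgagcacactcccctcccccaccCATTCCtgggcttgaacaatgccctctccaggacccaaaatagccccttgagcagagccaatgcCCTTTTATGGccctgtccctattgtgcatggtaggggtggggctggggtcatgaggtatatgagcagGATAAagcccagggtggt
Myl7 promoter: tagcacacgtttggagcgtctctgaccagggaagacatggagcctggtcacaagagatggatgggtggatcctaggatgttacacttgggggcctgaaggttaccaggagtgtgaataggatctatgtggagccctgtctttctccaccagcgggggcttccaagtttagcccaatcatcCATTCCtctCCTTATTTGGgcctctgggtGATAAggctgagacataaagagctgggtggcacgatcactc
Actc1 promoter: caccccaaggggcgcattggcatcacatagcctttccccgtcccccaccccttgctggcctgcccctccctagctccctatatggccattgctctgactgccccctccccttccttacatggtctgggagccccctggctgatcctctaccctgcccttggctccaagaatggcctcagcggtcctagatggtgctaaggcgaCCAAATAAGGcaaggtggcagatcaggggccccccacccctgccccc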

How the data were processed

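The counts were deposited by the authors as whole numbers of uniquely mapped reads per gene, without normalization, and were used as deposited. The submitters' notes name HISAT2 2.0.5 and featureCounts 1.6.3 on mm10, and whether strands were counted apart is not stated. The table holds 29 columns, 1 per library, all of them used, with 0 further columns of values, and Iso-seq from 6 flow cells entered only through the deposited annotation, on the same genome as GENCODE M21.

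FPKM used each library's total count and the union of a gene's deposited exons. Groups were compared with edgeR 4.0.16 (TMM, filter on low counts by group, robust quasi-likelihood test) in 1 fit over the 29 libraries, with Benjamini-Hochberg adjustment over 29911 genes and calls at an adjusted p under 0.05. Standard errors are the log2 difference over the root of F, so they are approximate. Single ratios were compared by exact permutation. DESeq2 1.42.0 was an alternative.

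The members and the 16 gene lists (132 genes) were chosen with earlier results of these data known. The rule fixed for naming took all 10 members, the 3 genes of each list with the highest mean FPKM in heart, any list gene called between the sexes, and the 3 nearest genes of each member. To keep the text short, not every list gene under this rule is printed. Bmp10, Myh3, Myh7b and the genes that overlap members were named outside it, after seeing the data.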

Additional observations from a re-analysis of the deposited data

Results flagged for a closer look

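In all, 41 groups of libraries were tested for 1 value far from the rest (Dixon's test, 5 hearts or 6 libraries of brain, cerebellum or colon). Of these groups, 17 had one. Chance alone gives about 1 in 20 only for independent groups of normally distributed values. Here many values rest on few counts and the groups share libraries, so that rate does not apply. In heart it was 4 of 12 groups, each time female heart 3: Myl3 at 2691 FPKM, Myl4 at 303 FPKM, Myl7 at 1989 FPKM and Myl7 per 100 Myl2 at 23.3. The ventricular chain was below and the atrial chains above the other 4 hearts. Atrial, adipocyte and lung markers were high in the same library, and their part in these values was not tested.

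In brain, female brain 1 lay above the other 5 libraries for Myh6 at 0.590 FPKM, Actc1 at 1.01 FPKM and Ttn at 0.206 FPKM. In cerebellum, female cerebellum 3 lay above the other 5 for Myl2 at 6.64 FPKM, Myl3 at 1.77, Myl4 at 0.541, Myl7 at 0.939, Tnnt2 at 2.21 and Actc1 at 1.57. The values of the genes within 1 library are not independent of each other.

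In colon the high libraries differed from gene to gene. They were female colon 3 for Myl3 at 2.72 FPKM, female colon 1 for Myl7 at 3.03 FPKM, male colon 3 for Tnnt2 at 9.25 FPKM and male colon 1 for Ttn at 0.289 FPKM.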

How the results depend on the processing

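All 10 genes stayed higher in heart, with 110 of 110 single values past the threshold in the same direction. Between the sexes 0 of 10 passed under every setting, and 92 of 100 single values kept their sign. For colon 3 genes passed, or 4 with DESeq2, without female colon 3 or without male colon 1. With the replicate block, a term for libraries that share a replicate number, 10, 0 and 3 genes passed. The numbers do not pair libraries: over 56 pairs with 1 number, deviations from group means had a median r of −0.000567.

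These differences changed sign, and each value with the changed sign fell short of the threshold. The cause was not tested. Between the sexes, leaving out 1 heart gave −0.49 to 0.54 for Myl2 (0.54 without female 1, 0.07 without male 2), −0.22 to 0.68 for Myl3 (−0.22 without female 3), −0.29 to 0.68 for Tnnt2 (−0.29 without female 3, −0.06 without male 2) and −0.46 to 0.47 for Tnni3 (0.47 without female 1, 0.03 without male 1). With the replicate block Myl3 was −0.18. For colon, leaving out 1 library gave −0.0516 (without female 3) to 0.84 for Myl3. Leaving out 1 library kept the sign of Ttn, at −0.71 to −0.04, and the −0.71, without male colon 1, passed the threshold. Other settings changed its sign. Ttn was 0.0149 with DESeq2, 0.0173 with RLE factors and 0.00355 with only colon and neural libraries. Myl7 gave no value in that last fit, since the filter removed it, so its call with DESeq2 (log2 4.33) rests on a filter it passes through other tissues.

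The median of Myh7 per 100 Myh6 was 0.228 from raw counts, 0.178 by GENCODE exon lengths and 0.228 by coding lengths (0.552 as reported). The GENCODE and coding lengths of Myh7 include bases outside its counted locus. The sign of its difference between the sexes could not change under the 8 alternatives. A length scales all libraries alike, and leaving out 1 library cannot reverse groups that do not overlap. Heart mean levels moved by more than 1 SD in 18 of 40 cases, by length or by TMM scaling. Coding lengths, means without female heart 3, TMM scaling of the marker sums and, without female heart 3, the calls of the marker lists and the nearest genes were chosen after seeing the data. Depth limits the traces, since libraries outside heart held few counts of most of these genes.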

Other observations

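Genes that overlap the sarcomere genes on the opposite strand had heart counts of their own, and their counts and those of the sarcomere genes cannot be told apart at the shared bases. Gm49130, which shares 114 exon bases with Myh6, had 14252, 13660 and 4885 counts in females 1, 2 and 3 and 10315 and 11524 in males 1 and 2, and at most 15 in any other library. Gm13938, over 453 bases of Ttn, had 6156, 8754 and 5307 counts in the female hearts and 7971 and 9403 in the male hearts, and at most 22 elsewhere. Relative to library depth both were lowest in female heart 3, as Myh6 and Ttn were.

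At Myh7, Gm31251 had 533, 1210 and 634 counts in the female hearts and 281 and 275 in the male hearts, with at most 18 elsewhere, so all female hearts were above both male hearts, which was not tested. Gm29015, over 142 exon bases of Myh7, had a mean of 12.1 FPKM in heart and 11.9 in brain. Gm15873, over 281 bases of the Tnni3 locus, had 25.7 FPKM in testis and 0.176 in heart, the reverse of the order of that locus in heart and testis.

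The data are counts of whole tissue, so no value here says which cells or chambers made a transcript. Male heart has 2 libraries and no exact test between the sexes can reach p under 0.05. Levels between genes hold only for the stated lengths. The Tnnt2, Myh7, Myl2, Myl3 and Tnni3 loci leave out most of the reference exon bases of all models together. Beside the transcript with the longest coding sequence, only Myh7 of these fell far short, with 2492 bases covered beside 6135. No pair among the 28 pairs of replicate libraries held identical counts.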
